A study of Homo sapiens with 6 samples.

Results

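MET, the TAM receptors (TYRO3, AXL and MERTK) and the discoidin domain receptors (DDR1 and DDR2) are receptor tyrosine kinases. The 9 genes described here are these 6 receptors and 3 soluble ligands, HGF, GAS6 and PROS1. They were chosen by name and looked up by Ensembl identifier among the 28181 genes listed in the deposited data, and all 9 were found. MET binds hepatocyte growth factor (HGF), a protein that is secreted as an inactive chain by mesenchymal cells and drives scattering and migration. The TAM receptors bind GAS6 and protein S (PROS1), a pair of vitamin K-dependent proteins that also bind phosphatidylserine on dying cells. The DDR receptors have no soluble ligand and bind collagen itself, so in bone marrow stroma they sit next to the matrix that the cell makes.

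UE7T-9 cells are human mesenchymal stem cells from bone marrow that were made immortal by hTERT and the E7 gene of human papillomavirus. RNA sequencing compared 3 samples of UE7T-9 SHC4, which received the adaptor protein SHC4 by lentivirus, with 3 samples of UE7T-9 Cont. The study's methods give UE7T-9 Cont a GFP lentiviral vector, whereas the labels call these samples Nontarget with genotype WT. The series text calls the SHC4 cells clones but does not say how many, and the labels number the libraries of each group as biological replicates. No label states that they were separate infections or cultures, so p-values here measure the spread between these samples. All 6 were grown in DMEM, and no treatment other than the vectors is given. The comparison asks which of the genes differ between cells with and without SHC4 overexpression.

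The SHC4 transcript itself was checked first. Its normalized count, which is the read count divided by the size factor of the library, was 56.5, 157 and 129.9 in UE7T-9 Cont against 134870.0, 119166 and 155006 in UE7T-9 SHC4. The libraries held 18144993 to 27721397 recovered reads, so that 3 reads correspond to a normalized count of 2.50 to 3.53. Pearson's r across genes was 0.9745 between UE7T-9 Cont 1 and UE7T-9 SHC4 1. UE7T-9 Cont 1 correlated less well with UE7T-9 Cont 2 (0.9668) and UE7T-9 Cont 3 (0.9622). Its r with UE7T-9 SHC4 2 (0.9692) and UE7T-9 SHC4 3 (0.9684) was also above its r with either control. UE7T-9 SHC4 1 correlated best with its own group, UE7T-9 SHC4 2 (0.9783) and UE7T-9 SHC4 3 (0.9751). By this measure only UE7T-9 Cont 1 stood apart from its group. COL1A1 RNA was high in both replicate 1 libraries (below), and results are also given without both of them, a choice made after the data were seen. All 8 mesenchymal markers examined were present, with summed normalized counts of 61929 to 74492 in UE7T-9 Cont against 70869 to 82794 in UE7T-9 SHC4. Summed leukocyte markers reached at most 454 and endothelial markers at most 99.9 in any library. Of the endothelial markers VWF was highest, at 34.4 to 65.3, PECAM1 had 7.80, 11.8 and 12.8 in UE7T-9 Cont against 9.67, 36.6 and 38.4 in UE7T-9 SHC4, and CDH5, which was named after its values were seen, was at 0 or 1 read throughout. The 6 epithelial markers summed to 102 to 206 in UE7T-9 Cont against 31.6 to 109 in UE7T-9 SHC4. limma called 0 of these marker genes with all libraries. Without both replicate 1 libraries, the fit in which 3 of the genes described here were called, it called 5.26% of all genes higher and 4.33% lower. Of the 8 mesenchymal markers it called 3 higher and 1 lower in that fit. Of 8 leukocyte markers 1 (HLA-DRA) was called higher, and of 6 epithelial markers 1 (KRT18) was called lower. DESeq2 called 2.06% of all genes higher and 2.08% lower. Of the mesenchymal markers it called PDGFRB and LEPR higher (LEPR DESeq2 adjusted p = 0.00344). It also called the keratin KRT18 lower, from 41.9, 37.7 and 112 to 21.1, 3.33 and 3.49 (DESeq2 adjusted p = 0.00804). The part of these markers in the results below was not tested.

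None of the 9 genes passed the test between the groups with all 6 libraries. limma with Benjamini-Hochberg adjustment called 0 of 9, against 0.0651% of the 23040 genes tested in either direction. DESeq2 on the recovered reads also called 0 of 9 (4.14% of genes) and edgeR 0 of 9 (0.0694%). At an unadjusted p below 0.05, limma had 2 of the 9 (14.4% of all genes) and DESeq2 had 4 (16.7%). The log2 fold change, taken on the log2(value + 1) scale, was above 0 for 7 genes and below 0 for 2, where 49.7% of all genes were above 0. The median over the 9 was 0.16, and it was 0.00 (-0.00395) over all genes tested. Only TYRO3 had no overlap between the groups, 1 of 9, where 19.3% of all genes had none (9.13% with UE7T-9 SHC4 above). In bulk RNA a smaller number of expressing cells and less RNA per cell cannot be told apart.

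**Figure D1:**
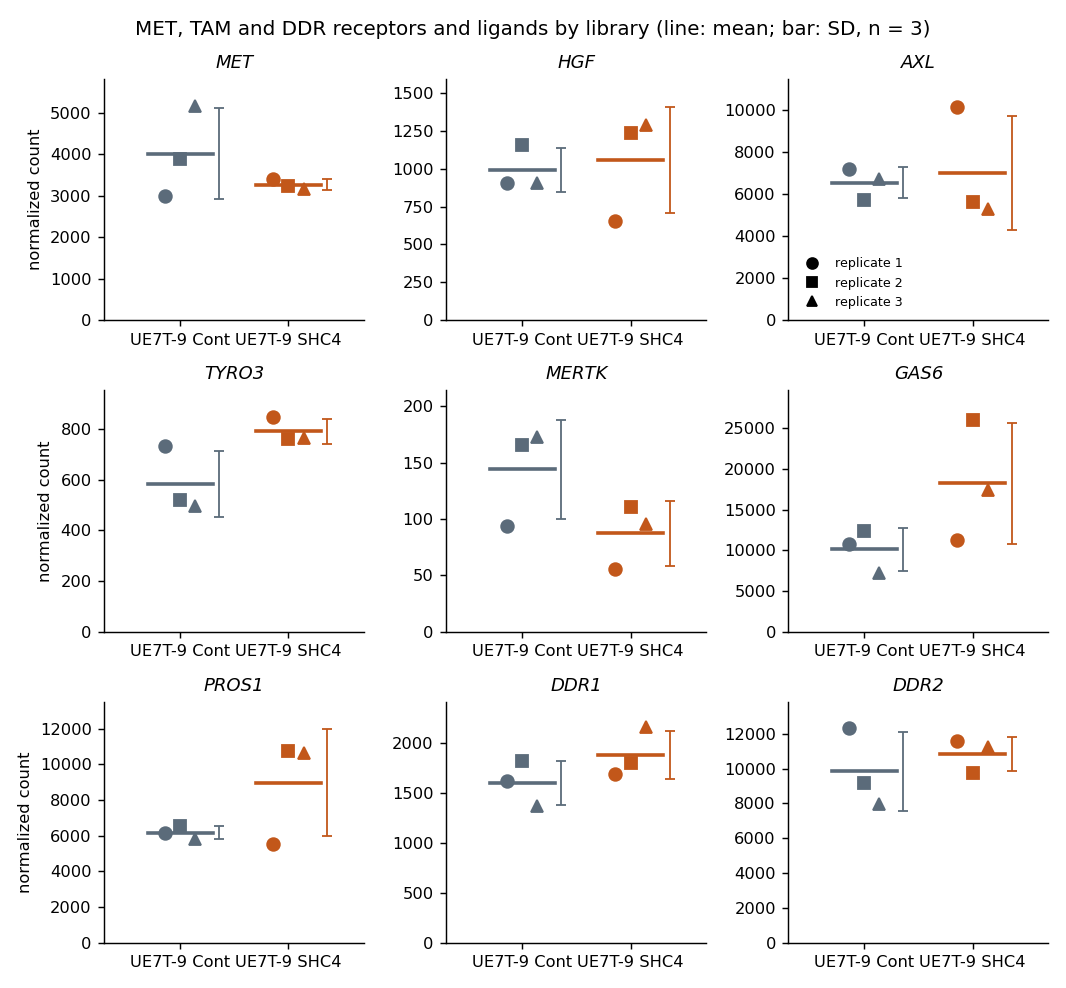
Normalized counts (y axis, from 0, a separate scale for each gene) of the 9 genes in UE7T-9 Cont (grey) and UE7T-9 SHC4 (orange). Circles, squares and triangles are replicates 1, 2 and 3, lines are means and bars are the SD (n = 3). The TYRO3 values of UE7T-9 SHC4 (762 to 848) all lie above those of UE7T-9 Cont (495 to 735), and the other 8 genes overlap.

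The TAM ligands had the largest positive fold changes of the 9 genes, and both were carried by replicates 2 and 3 of UE7T-9 SHC4. GAS6 (ENSG00000183087, chromosome 13, 113820549 to 113864067, minus strand, GRCh38), the ligand of all TAM receptors, gave normalized counts of 10795, 12373 and 7162 in the UE7T-9 Cont libraries against 11242, 26051 and 17458 in UE7T-9 SHC4. The UE7T-9 SHC4 1 library lay within the controls, and the other two lay above all of them. The means were 10110.1 ± 2672 and 18250.1 ± 7436 (SD, n = 3 each). The log2 fold change was 0.81 (standard error 0.31, limma adjusted p = 0.292; DESeq2 adjusted p = 0.0917). Without both replicate 1 libraries it was 1.18, with a 95% interval of 0.57 to 1.79 (limma adjusted p = 0.0289).

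PROS1 (ENSG00000184500, chromosome 3, 93873033 to 93980003, minus strand), protein S, is an anticoagulant cofactor as well as a ligand of TYRO3 and MERTK. It gave normalized counts of 6123, 6546 and 5814 in the UE7T-9 Cont libraries against 5505, 10730.2 and 10656 in UE7T-9 SHC4. UE7T-9 SHC4 1 was the lowest of all 6 libraries, while UE7T-9 SHC4 2 and 3 were the highest. With all libraries the log2 fold change was 0.48 (standard error 0.25, limma adjusted p = 0.414). In the fit without the replicate 1 libraries PROS1 rose by 0.79, with an interval of 0.53 to 1.06 (limma adjusted p = 0.00567). Within each library the log2 ratio of GAS6 to PROS1 per kb of exon was 0.54 ± 0.33 in UE7T-9 Cont against 0.87 ± 0.28 in UE7T-9 SHC4 (SD, n = 3 each; exact two-sided permutation p = 0.3, where 3 against 3 cannot go below 0.1).

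GAS6 lies beside other transcripts, and GAS6-AS1 overlaps its exons. GAS6-AS1, on the opposite strand, shares 421 exon bases with GAS6, and the library kit does not mark strand, so reads there cannot be assigned to one gene. Its normalized counts were 185 to 343 and overlapped between the groups, far below those of GAS6. GAS6-DT starts on the opposite strand just upstream of GAS6 (113864168 to 113866833, plus strand). It had 272, 227 and 239 in UE7T-9 Cont against 323, 361 and 334 in UE7T-9 SHC4. The groups did not overlap, including the replicate 1 libraries, with a log2 fold change of 0.47 (limma adjusted p = 0.216), and without both replicate 1 libraries it was 0.57 (limma adjusted p = 0.0477). For PROS1, 15.7% of its 25-base words also occur in the pseudogene PROS2P, and for TYRO3, 6.71% occur in TYRO3P. Neither pseudogene was used here, and how such reads were counted is not given in the sources used here.

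The 250 bases upstream of the RefSeq starts of the ligand genes are shown because GAS6 and PROS1 were both called higher in the fit without the replicate 1 libraries. RefSeq (GRCh38.p14) lists 1 start for each gene. Both sequences are written 5′ to 3′ on the minus strand and end at the base before the start, GAS6 at chr13:113864077-113864326 and PROS1 at chr3:93973897-93974146. Capitals mark the GC box (GGGCGG, or CCGCCC on the other strand) and, in PROS1, a match to TTCNNNGAA, the general form of a STAT site.
GAS6: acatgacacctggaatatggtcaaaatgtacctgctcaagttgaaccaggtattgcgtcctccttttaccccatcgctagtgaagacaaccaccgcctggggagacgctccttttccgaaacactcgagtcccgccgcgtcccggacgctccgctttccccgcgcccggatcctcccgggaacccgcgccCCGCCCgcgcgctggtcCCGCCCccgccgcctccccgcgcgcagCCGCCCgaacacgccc
PROS1: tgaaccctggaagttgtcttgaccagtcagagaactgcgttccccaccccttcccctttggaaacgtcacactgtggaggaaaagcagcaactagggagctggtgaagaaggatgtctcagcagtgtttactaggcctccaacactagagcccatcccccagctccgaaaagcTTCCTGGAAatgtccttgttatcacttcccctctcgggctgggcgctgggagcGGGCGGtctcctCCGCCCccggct
The GAS6 sequence holds 3 GC boxes, all in the CCGCCC reading, and has a GC content of 66.8%. That of PROS1 holds 2 GC boxes, 1 in each reading, with a GC content of 57.6%, and its TTCNNNGAA match spans bases -77 to -69 from the start. Both strands were searched, with no overlap between the motif matches. CCAAT and TATAAA were not found in either window. Of the 35116 promoter sequences in the RefSeq table, 42.6% hold the GC box, 32.0% CCAAT, 10.7% TATAAA and 6.57% TTCNNNGAA. The GAS6-DT start lies within the GAS6 window.

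Among the TAM receptors, TYRO3 and MERTK had fold changes of opposite sign, and AXL had none that held its sign. TYRO3 (ENSG00000092445, chromosome 15, 41557675 to 41583586, plus strand), the TAM receptor best known from the nervous system, gave normalized counts of 735, 522 and 495 in the UE7T-9 Cont libraries against 848, 762 and 764 in UE7T-9 SHC4. The groups did not overlap, but UE7T-9 Cont 1 lay close to the UE7T-9 SHC4 values. The means were 584 ± 132 and 791 ± 49.0 (SD, n = 3 each), and the log2 fold change was 0.46 (standard error 0.17, limma adjusted p = 0.267). Without UE7T-9 Cont 1 it was 0.64 (limma adjusted p = 0.0231) and TYRO3 was the 1 gene of the 9 called, where 5.68% of all genes were called and 2.99% called higher. Without both replicate 1 libraries it was 0.59 with an interval of 0.32 to 0.86 (limma adjusted p = 0.0188). The call thus depended on UE7T-9 Cont 1.

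AXL (ENSG00000167601, chromosome 19, 41219203 to 41261766, plus strand), the TAM receptor for which GAS6 is the ligand, gave normalized counts of 7186, 5740.3 and 6711 in the UE7T-9 Cont libraries against 10145, 5618 and 5279 in UE7T-9 SHC4. UE7T-9 SHC4 1 was the highest of the 6 libraries, while UE7T-9 SHC4 2 and 3 were the lowest. The log2 fold change was 0.04 with an interval of -0.50 to 0.58 (limma adjusted p = 0.958), and it was -0.19 without both replicate 1 libraries (limma adjusted p = 0.378). An antisense gene, AC011510.1, shares 67 exon bases with AXL and gave normalized counts of at most 12.9. MERTK (ENSG00000153208, chromosome 2, 111898479 to 112029561, plus strand), the main receptor of macrophages for clearing dying cells, had the lowest counts of the 9 genes. It had 93.6, 166 and 173 in UE7T-9 Cont against 55.4, 111 and 95.5 in UE7T-9 SHC4. The value of UE7T-9 Cont 1 lay among those of UE7T-9 SHC4, and the other controls lay above all of them. The log2 fold change was -0.73 with an interval of -1.47 to 0.01 (limma adjusted p = 0.355). Without both replicate 1 libraries it was -0.72, with an interval of -1.18 to -0.25 (limma adjusted p = 0.0621). With each library left out it ranged from -1.01 to -0.43.

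AXL made up nearly all TAM receptor RNA in every library. Per kb of exon, its share of the sum of the TAM receptors was 93.8% ± 0.595 in UE7T-9 Cont against 93.2% ± 2.11 in UE7T-9 SHC4 (SD, n = 3 each; exact two-sided permutation p = 0.8). TYRO3 held 4.53%, 3.98% and 3.27% in UE7T-9 Cont against 3.77%, 5.89% and 6.26% in UE7T-9 SHC4 (exact permutation p = 0.3). For MERTK the shares were 1.34%, 2.95% and 2.66% in UE7T-9 Cont against 0.573%, 1.99% and 1.82% in UE7T-9 SHC4 (exact permutation p = 0.3). All shares overlapped between the groups, and in both groups the replicate 1 library had the lowest MERTK share. With the length of the transcript with the longest coding sequence instead of all exons, a choice made after the data were seen, the AXL share was 92.7% and 92.0%. The ligand to receptor ratio of GAS6 to AXL was 0.38 ± 0.51 in UE7T-9 Cont against 1.14 ± 1.08 in UE7T-9 SHC4 on the log2 scale per kb of exon (SD, n = 3 each; exact permutation p = 0.3). UE7T-9 SHC4 2 and 3 were at 1.99 and 1.505, and UE7T-9 SHC4 1 was at -0.07, within the controls. With the length of the coding transcript the means were 1.52 and 2.29 and UE7T-9 SHC4 1 was at 1.08. Whether a library held more GAS6 than AXL thus depended on the length used. A length shifts this log2 ratio equally in every library, so it cannot change the difference between the groups.

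MET and its ligand did not differ beyond the spread of the libraries. MET (ENSG00000105976, chromosome 7, 116672390 to 116798386, plus strand) gave normalized counts of 2989, 3885 and 5177 in the UE7T-9 Cont libraries against 3418, 3230.5 and 3153 in UE7T-9 SHC4. The controls spanned the whole range, and the UE7T-9 SHC4 values lay close together within it. The means were 4017 ± 1100.3 and 3267 ± 136 (SD, n = 3 each), and the log2 fold change was -0.26 with an interval of -0.69 to 0.16 (limma adjusted p = 0.562). It was -0.06 without UE7T-9 Cont 3 and -0.46 without UE7T-9 Cont 1. Without both replicate 1 libraries it was -0.49, with an interval of -0.82 to -0.16 and an adjusted p of 0.0675 from limma. HGF (ENSG00000019991, chromosome 7, 81699008 to 81770438, minus strand) had 909, 1157 and 903 in UE7T-9 Cont against 656, 1234 and 1289 in UE7T-9 SHC4. UE7T-9 SHC4 1 was again the lowest library and UE7T-9 SHC4 2 and 3 the highest. Its log2 fold change was 0.05 with an interval of -0.51 to 0.60 (limma adjusted p = 0.952), and 0.30 without both replicate 1 libraries (limma adjusted p = 0.217). Per kb of exon the log2 ratio of MET to HGF was 2.47 ± 0.45 in UE7T-9 Cont against 2.17 ± 0.60 in UE7T-9 SHC4 (SD, n = 3 each; exact permutation p = 0.5), so that each library held several times more receptor than ligand transcript.

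Of the collagen receptors, DDR2 was the more abundant in every library. DDR2 (ENSG00000162733, chromosome 1, 162631373 to 162787400, plus strand), the receptor for fibrillar collagen in mesenchymal cells, gave normalized counts of 12347, 9185 and 7977 in the UE7T-9 Cont libraries against 11556, 9721 and 11243 in UE7T-9 SHC4. The highest value was that of UE7T-9 Cont 1, and the groups overlapped. Its log2 fold change was 0.16 with an interval of -0.26 to 0.58 (limma adjusted p = 0.743), and it was 0.02 without UE7T-9 Cont 3, 0.34 without UE7T-9 Cont 1 and 0.29 without both replicate 1 libraries. DDR1 (ENSG00000204580, chromosome 6, 30876421 to 30900156, plus strand), which is known mostly from epithelium, had 1621, 1820.0 and 1375 in UE7T-9 Cont against 1698, 1800.4 and 2161 in UE7T-9 SHC4. The log2 fold change was 0.23 with an interval of -0.10 to 0.57 (limma adjusted p = 0.505), 0.32 without both replicate 1 libraries and 0.13 to 0.33 with each library left out. Per kb of exon the log2 ratio of DDR2 to DDR1 lay between 2.10 and 2.69 in all 6 libraries, with means of 2.37 ± 0.30 in UE7T-9 Cont against 2.29 ± 0.21 in UE7T-9 SHC4 (SD, n = 3 each; exact permutation p = 0.7). With the length of the transcript with the longest coding sequence, it lay between 0.52 and 1.11, since the DDR1 exons add up to 9122 bases and that transcript to 2882.

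**Figure D2:**
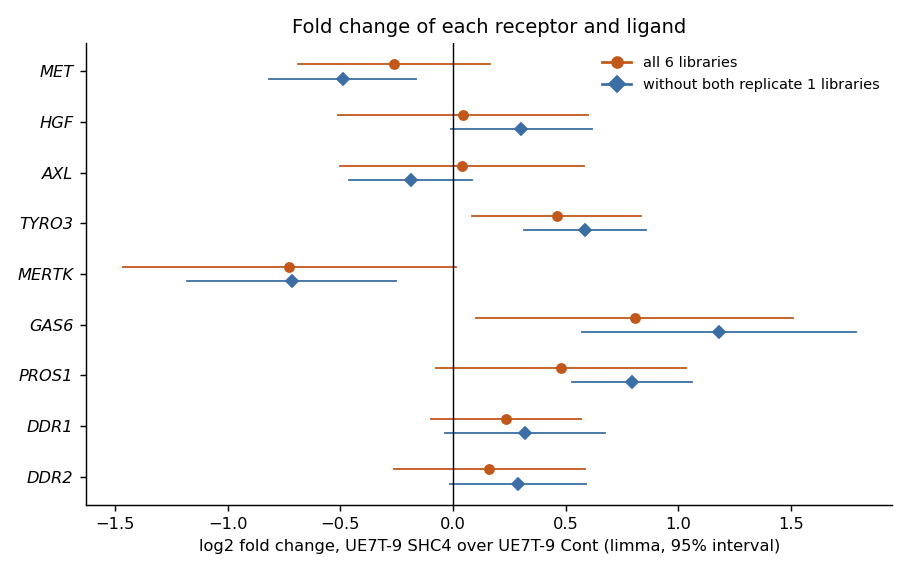
Log2 fold change of UE7T-9 SHC4 over UE7T-9 Cont (x axis, limma, log2(normalized count + 1) scale), 9 genes, with bars for the 95% interval. Orange points use all 6 libraries and blue diamonds leave out both replicate 1 libraries. With 6 libraries TYRO3 (0.46) and GAS6 (0.81) have unadjusted intervals above 0, and without the replicate 1 libraries PROS1 (0.79) joins them. In that fit the unadjusted intervals of MET (-0.49) and MERTK (-0.72) lie below 0. AXL moves from 0.04 to -0.19, with an interval that spans 0.

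The ligands were called only when both replicate 1 libraries were left out, a choice made after the data were seen. With any single library left out, limma called neither ligand. The lowest limma adjusted p was then 0.145 for GAS6 and 0.0708 for PROS1, both without UE7T-9 SHC4 1. Without both replicate 1 libraries, limma called 3 of the 9 genes, GAS6, PROS1 and TYRO3, all higher in UE7T-9 SHC4. In that fit 9.58% of all genes were called, 5.26% higher and 4.33% lower. The replicate 1 libraries also differed in collagen RNA. COL1A1, the main chain of type I collagen and a DDR ligand, stood at 315042 normalized counts in UE7T-9 Cont 1 and at 276719 in UE7T-9 SHC4 1, against 67813 to 130035 in the other 4. Its level was thus high in replicate 1 of both groups, in contrast to the ligands GAS6 and PROS1, which were high in replicates 2 and 3 of UE7T-9 SHC4 alone. The part of this difference between the libraries in the results was not tested.

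**Figure D3:**
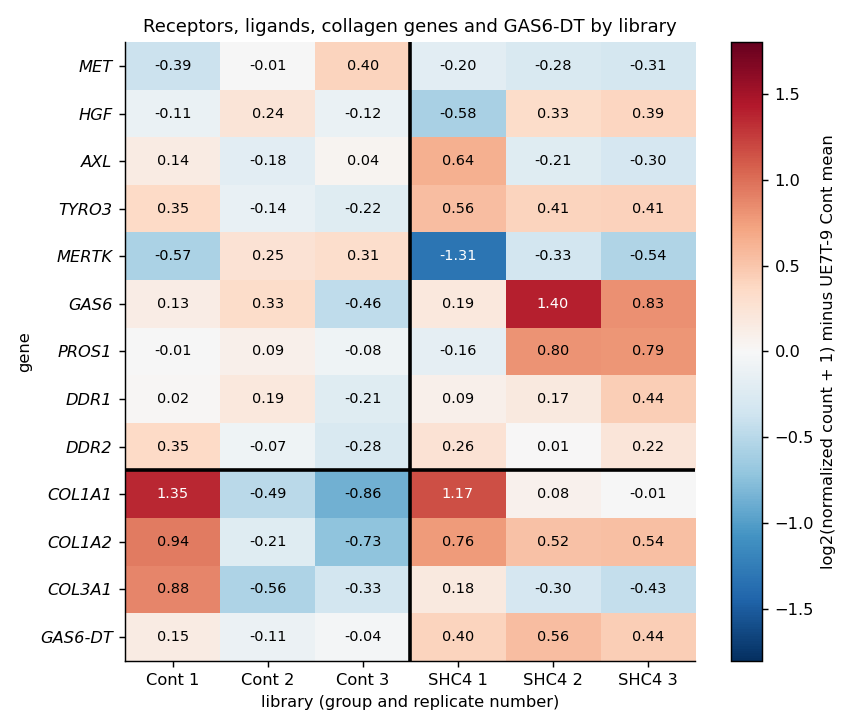
Log2(normalized count + 1) minus the UE7T-9 Cont mean (colour and printed value) for the 9 genes, 3 collagen genes and GAS6-DT (rows) in each library (columns). GAS6 and PROS1 are at 0.79 to 1.40 in UE7T-9 SHC4 2 and 3 but at 0.19 and -0.16 in UE7T-9 SHC4 1, while COL1A1 is at 1.35 and 1.17 in the replicate 1 libraries.

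The levels of the 9 genes were ordered per kb of exon, since counts of genes of different length cannot be compared directly. In UE7T-9 Cont, GAS6 came first at 1683 ± 445 normalized counts per kb (SD, n = 3), followed by AXL at 1270.0 ± 143, PROS1 at 1132 ± 67.5 and DDR2 at 917 ± 210.3. Among these, the ranges of neighbouring genes overlapped. MET at 571 ± 156, DDR1 at 176 ± 24.4, HGF at 101 ± 14.8, TYRO3 at 53.3 ± 12.0 and MERTK at 30.7 ± 9.36 followed, each apart from its neighbours. In UE7T-9 SHC4 the order was the same except that PROS1 (1647 ± 550.2) stood before AXL (1361 ± 527), and HGF and TYRO3 also overlapped. By this measure GAS6, PROS1, AXL and DDR2 were among the top 1.22% to 3.78% of the 23040 genes tested, and MERTK ranked 12105th.

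**Figure D4:**
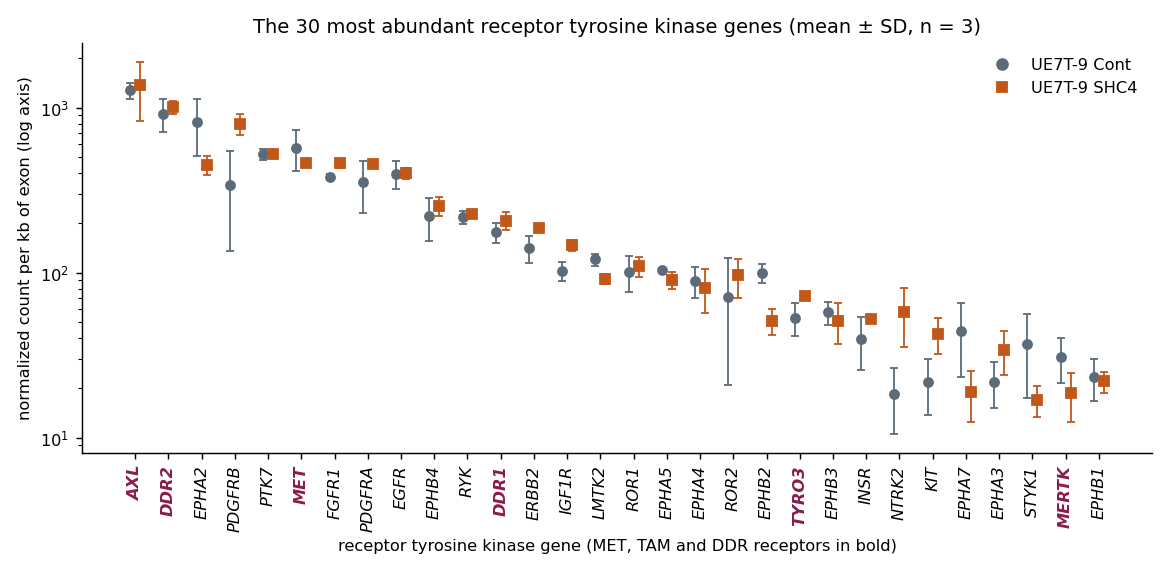
Normalized count per kb of exon (y axis, log scale) of the 30 most abundant of 55 receptor tyrosine kinase genes, as mean ± SD (n = 3) in UE7T-9 Cont (grey circles) and UE7T-9 SHC4 (orange squares). AXL and DDR2 head the order, followed by EPHA2, PDGFRB and PTK7, and MERTK is near its end.

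AXL and DDR2 were also the most abundant of the receptor tyrosine kinases examined. Of 55 such genes in the data, AXL ranked 1st and DDR2 2nd per kb of exon over all libraries, MET 6th, DDR1 12th, TYRO3 21st and MERTK 29th. By the length of the transcript with the longest coding sequence the ranks were 1, 4, 5, 8, 23 and 30. limma called 0 of the 52 that were tested, and their median log2 fold change was 0.03. Of the 45 with an adjusted p in DESeq2, 3 were called higher and 3 lower, against 2.06% and 2.08% of all genes. None of the 6 was MET, a TAM or a DDR receptor. The most significant was EPHB2, an ephrin receptor, which had 1345, 1051 and 1332 in UE7T-9 Cont against 765, 589 and 561 in UE7T-9 SHC4 (log2 fold change of -0.96 in DESeq2 with an adjusted p of 0.000223; limma adjusted p = 0.084). NTRK2, a neurotrophin receptor (1.66, DESeq2 adjusted p = 0.00116), PDGFRB, a receptor of pericytes and stroma (1.23, 0.0171), and IGF1R (0.52, 0.0426) were higher. EPHA7 (-1.24, DESeq2 adjusted p = 0.0247) and EPHA2 (-0.86, 0.0426) were lower. Limma without UE7T-9 Cont 1 called 10 of the receptor genes (5.68% of all genes), without UE7T-9 SHC4 1 it called 1 (0.291%), and without both it called 7 higher and 4 lower (5.26% and 4.33%), TYRO3 among the former.

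The genes around MET showed few differences. Of the 8 genes for the activation or inhibition of HGF, limma and DESeq2 called 0, and the median log2 fold change was -0.30. PLAU, the urokinase protease that can activate HGF, had the highest count of them, with 3385, 3713 and 5296 in UE7T-9 Cont against 2752, 3129 and 3085 in UE7T-9 SHC4. These groups did not overlap (log2 fold change -0.44, limma adjusted p = 0.299). Without UE7T-9 SHC4 1, and also without both replicate 1 libraries, limma called 1 gene of the list (0.291% and 9.58% of all genes). In the latter fit it was PLAT, tissue plasminogen activator, which was named after its values were seen (-1.10, limma adjusted p = 0.00144). Of the 17 adaptors and partners of MET, limma called 0, and DESeq2 called 1 higher of the 16 with an adjusted p (2.06% of all genes). PLXNB1, a semaphorin receptor that can associate with MET, had 922, 939 and 828 in UE7T-9 Cont against 1415, 2149 and 1787 in UE7T-9 SHC4, all above the controls (log2 fold change of 0.99 in DESeq2 with an adjusted p of 0.000102; limma 0.97, adjusted p = 0.084). CD44, a hyaluronan receptor and the gene of this list with the highest count, had a log2 fold change of 0.17 (limma adjusted p = 0.629). In limma 2 genes of this list were called without UE7T-9 Cont 1 (5.68% of all genes), 1 without UE7T-9 SHC4 1 (0.291%) and 4, all higher, without both (5.26%).

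Of the 18 partners of the TAM receptors in cell clearance, limma called 0, and DESeq2 called 2 higher and 1 lower of the 15 with an adjusted p (2.06% and 2.08% of all genes). MFGE8, a secreted bridge between phosphatidylserine and integrins, had 12042, 12231 and 9079 in UE7T-9 Cont against 16874, 20664 and 20514 in UE7T-9 SHC4. All UE7T-9 SHC4 libraries lay above the controls, replicate 1 included (0.80 on the log2 scale, DESeq2 adjusted p = 0.00108; limma adjusted p = 0.148). LGALS3, galectin-3, a reported ligand of MERTK, had 5371, 4408 and 3915 in UE7T-9 Cont against 5953, 8261 and 7673 in UE7T-9 SHC4 (0.68, DESeq2 adjusted p = 0.0214; limma adjusted p = 0.18). ITGB3, the integrin beta 3 chain, was lower, with 401, 485 and 460.4 in UE7T-9 Cont against 265, 281 and 218 in UE7T-9 SHC4 (-0.81, DESeq2 adjusted p = 0.00216; limma adjusted p = 0.111). The list had a median log2 fold change of 0.22, and 13 of 18 genes were above 0. LRP1, the scavenger receptor with the highest counts here, ranged from 20889 to 56469 in UE7T-9 Cont alone (0.43, limma adjusted p = 0.607). Without UE7T-9 Cont 1 limma called 4 genes of this list (5.68% of all genes), and without both replicate 1 libraries it called 6 higher (5.26%) and 1 lower (4.33%). The genes for gamma-carboxylation, the vitamin K-dependent step that GAS6 and protein S need, were called 0 of 3 times by either test, and GGCX, the carboxylase and the highest of them by count, though not per kb, had a log2 fold change of -0.07 (limma adjusted p = 0.832).

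Of the 14 collagen genes that encode DDR ligands, limma and DESeq2 called 0, with 7 above 0, 7 below 0 and a median log2 fold change of 0.00 (-0.00167). COL1A1 was at 0.41 on the log2 scale (standard error 0.61, limma adjusted p = 0.799), as the spread within each group far exceeded the difference. With both replicate 1 libraries left out, 3 collagen genes were called higher and 1 lower by limma, against 5.26% and 4.33% of all genes. Among 16 partners and targets of the DDR receptors both tests called 0, with a median of -0.02. MMP2, a gelatinase with the highest count of them, had 51279, 42374 and 35709 in UE7T-9 Cont against 40235, 144602 and 96039.9 in UE7T-9 SHC4. As for GAS6, UE7T-9 SHC4 1 lay within the controls and the other UE7T-9 SHC4 libraries above them (log2 fold change 0.95, limma adjusted p = 0.362, DESeq2 adjusted p = 0.0528). Without both replicate 1 libraries limma called 1 of the 16 genes, MMP2 (1.60, limma adjusted p = 0.00568). In that fit 9.58% of all genes were called and 5.26% were called higher.

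**Figure D5:**
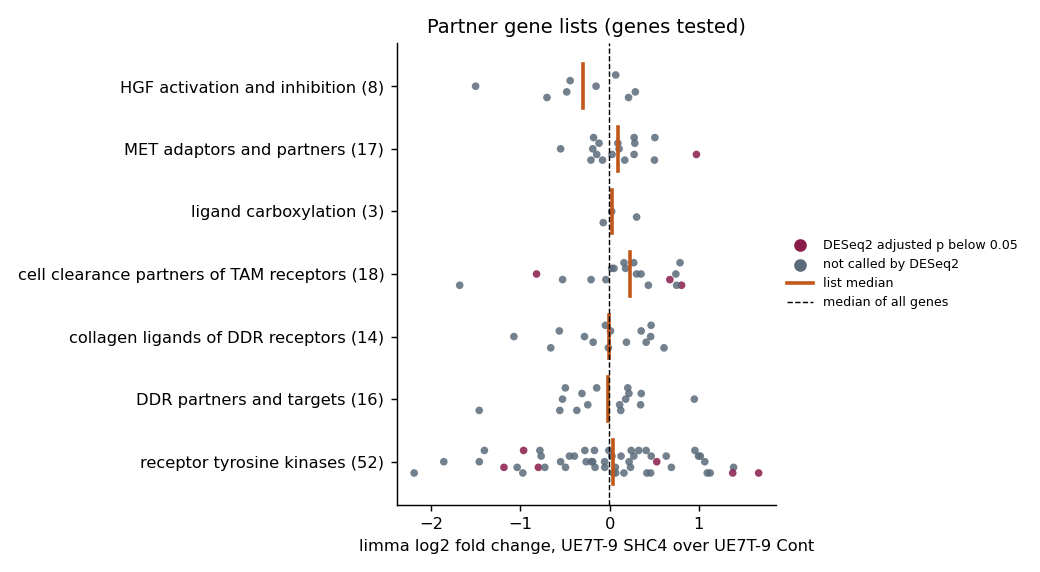
Log2 fold change of UE7T-9 SHC4 over UE7T-9 Cont (x axis, limma) of each tested gene (points) in 7 lists, with the number tested in brackets. Orange bars are list medians, the dashed line is the median of all genes and dark red points have a DESeq2 adjusted p below 0.05. The called genes are 1 MET partner, 3 cell clearance genes and 6 receptor tyrosine kinases, where DESeq2 called 4.14% of all genes.

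For each receptor, the genes with the most similar profile over the 6 libraries were listed by the mean absolute difference of centred log2 values, among 12678 genes with a mean of at least 50. MET was nearest to SLC25A28, SAMD4A and TRAPPC13 (mean difference 0.04 for each, against a median of 0.28 over all genes). AXL was nearest to SMURF2 (0.04), MEST (0.05) and PAXX (0.08), and TYRO3 to CDC25B, RPS18P9 and LMNA (0.03, 0.04 and 0.04). SMURF2, which encodes a ubiquitin ligase, had 2895 in UE7T-9 SHC4 1 against 1565 to 2047 in the other 5 libraries, and AXL was likewise highest in UE7T-9 SHC4 1. MERTK was nearest to RASEF, SLC5A3 and ZNF665 (0.08, 0.09 and 0.10). DDR1 was nearest to MEF2D, AP1S2 and RABGAP1L (0.04 each), and DDR2 to ZFP64, SMIM10 and GLRX5 (0.04 each). None of the 6 receptors had another of them among its nearest genes.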

How the data were processed

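UE7T-9 RNA was sequenced on a NovaSeq 6000 from a NEBNext Ultra kit, which does not mark strand. The submitters' processing notes name HISAT2 2.0.5, featureCounts 1.5.0-p3 and DESeq2. The genome build and strand setting are not given in the sources used here. The authors deposited 1 signal per gene and library, a read count divided by a size factor (0.849 to 1.20, a normalized count). All values (100%, tolerance 0.01) were whole multiples of 1 unit per library, its lowest value above 0, so reads were recovered by division. They totalled 18144993 to 27721397 per library, which limits the precision of low genes such as MERTK (63 reads at the least). No library was left out of the main comparison.

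Groups and replicate numbers were taken from the sample labels. All 28181 identifiers were matched to GENCODE 29 (GRCh38) for symbols, positions and exon lengths. The main test was limma 3.58.1 (R 4.3.3; lmFit, then eBayes with a trend), fitted to log2(value + 1). It covered 23040 genes whose mean reached at least 1. P-values were adjusted over all of them by Benjamini-Hochberg, with a threshold of 0.05. A fold change on this scale understates the change of low genes. Exact two-sided permutation tests compared shares and ratios. Alternatives were DESeq2 1.42.0 and edgeR 4.0.16 (quasi-likelihood) on the recovered reads (11 genes called by edgeR), library size and TMM scaling, no filter, a mean of at least 10, pseudocount 0.1, a replicate block and leaving out each library. Leaving out both replicate 1 libraries and the length of the transcript with the longest coding sequence were added after the data were seen. The fits were tested on simulated data.

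The 9 genes and all lists were chosen with earlier results of these data known, so none is independent evidence. Named besides the 9 are SHC4, the genes of each list called by limma or DESeq2 (up to 5) and its gene with the highest mean count, the 5 most abundant receptor tyrosine kinases, genes that overlap or copy a member, and the 3 most similar genes per receptor. FLT3, LTK and FGFR2 were not used here.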

Additional observations from a re-analysis of the deposited data

How the results depend on the processing

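Of the 9 genes, 7 kept their direction under every alternative run, and the exceptions were HGF and AXL. With library size scaling HGF had a log2 fold change of -0.0577 and AXL -0.0632, but this scaling moved the median of all genes to -0.10, and relative to that median they were at 0.05 and 0.04. Without both replicate 1 libraries AXL was at -0.19, and TYRO3 (0.59), GAS6 (1.18) and PROS1 (0.79) passed the threshold; TYRO3 also passed without UE7T-9 Cont 1. With each library left out in turn, HGF ranged from -0.13 to 0.36, AXL from -0.26 to 0.21, the difference in the AXL share of TAM receptors from -1.74 to 0.137 percentage points and that in the log2 ratio of DDR2 to DDR1 from -0.21 to 0.0905. TYRO3 ranged from 0.35 to 0.64, GAS6 from 0.51 to 1.11, PROS1 from 0.32 to 0.80, MET from -0.46 to -0.06, MERTK from -1.01 to -0.43, DDR1 from 0.13 to 0.33 and DDR2 from 0.02 to 0.34. The cause was not tested.

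The number of genes called was 15 with limma, 669 with DESeq2, 24 with library size scaling, 25 with TMM, 43 without a filter, 47 with the replicate block, 2217 without both replicate 1 libraries and 2 to 1311 with each library left out, the highest without UE7T-9 Cont 1. Of the 9 genes, 0 were called except 3 without both replicate 1 libraries and 0 to 1 with each library left out. Among the lists, DESeq2 called 1 of 16 MET partners, 3 of 15 clearance partners and 6 of 45 receptor tyrosine kinases, against 4.14% of all genes. Without both replicate 1 libraries limma called 9.58% of all genes. In that fit it called 1 of 8 HGF activation genes, 4 of 17 MET partners and 7 of 18 clearance partners. It also called 4 of 14 collagens, 1 of 16 DDR partners and 11 of 52 receptor tyrosine kinases. With each library left out, the ranges were 0 to 1, 0 to 2, 0 to 4, 0 to 0, 0 to 0 and 0 to 10.

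The replicate numbers were not treated as a pairing. Deviations from the group means of same-numbered libraries correlated at 0.148, 0.013 and -0.00696 across genes for replicates 1, 2 and 3. Between differently numbered libraries the values ran from -0.108 to 0.0992, so that of replicate 1 was the highest. With the replicate block, 47 genes were called and 0 of the 9.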
